A study of Homo sapiens with 6 samples.

Results

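The 3 control cultures of a study of LRRC8A, a subunit of the volume-regulated anion channel, are described here by their absolute transcript levels. They were chosen by label, as the 3 of 6 libraries that carried a non-targeting shRNA. All 20345 protein-coding genes with a row entered the totals, the numbers of detected and silent genes and the test of spread. Y-linked genes were left out of the gene lists, the ranking of genes by spread and the counts by chromosome. Per the labels, the cells are SW1990, a line derived from human pancreatic cancer. A lentiviral pLKO.1 vector delivered the hairpin and puromycin kept the transduced cells, so all 3 libraries come from cells that bear a vector and had passed drug selection. RNA was taken with Trizol and made into stranded mRNA libraries. The labels put all libraries in 1 batch. Whether the 3 cultures came from 1 stable line is not said, so the spread between them may be technical. In the control cultures LRRC8A itself stood at 35.7, 32.7 and 31.1 TPM (transcripts scaled to a common total) in replicates 1, 2 and 3.

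Pancreatic ductal adenocarcinoma arises in the exocrine pancreas, and its cells usually keep features of duct epithelium: keratins of simple epithelia, mucins and the transcription factors of foregut endoderm. Tumours are often divided into a classical subtype, with secretory and gut-like genes, and a basal-like subtype, with squamous and migratory genes. Many lose CDKN2A or SMAD4 function. Expression levels do not show mutations.

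The libraries held 37052641 to 37565017 counts each, and 15385 to 15460 genes had at least 1 count. The counts of a gene over the library total, scaled with TMM factors of 0.996 to 1.00, are given as CPM, which are used to compare a gene between cultures. TPM values, which also divide by transcript length, are used to compare genes. Pearson's r of log2(TPM + 1) across the 13495 genes with a mean of at least 10 counts was 0.994 to 0.995 between pairs of cultures, a description across genes, which are not independent. The deposited TPM of these genes summed to 937724 to 939556 per library, so shares below are of that sum.

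A gene was called detected at 1 TPM or more in every culture. By this rule (a threshold, not a limit of detection) 11764 genes (57.8%) were detected, with a median of 23.9 TPM. Another 3850 genes (18.9%) were silent, with no count in any culture, and the remaining 4731 had counts but did not reach 1 TPM in every culture. A count of 0 in a library allows up to 3 counts, or 0.0804 CPM in replicate 1, 0.0810 in replicate 2 and 0.0799 in replicate 3, for counting error only. The transcript pool was concentrated in few genes. The 114 genes at 1000 TPM or more, 0.560% of all, held 37.0% ± 0.60 (SD, n = 3) of the TPM, and the 7209 genes between 10 and 100 TPM held 27.5% ± 0.18. The 100 most abundant genes held 35.5% ± 0.60 and the 1000 most abundant 64.6% ± 0.25. As shares of counts, which do not correct for length, the 100 most abundant held 21.7%.

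The most abundant transcripts came from the mitochondrial genome, which encodes 13 subunits of the respiratory chain and ATP synthase. All 13 genes were among the 100 most abundant and 11 were among the first 20, and together they held 12.8% ± 0.88 (SD, n = 3) of the TPM. MT-CO3, a subunit of cytochrome c oxidase, led at 16007.5, 15345.9 and 16615.1 TPM in replicates 1, 2 and 3. The next genes, MT-CO2, MT-CO1 and MT-ATP6, had means of 14345, 13866 and 13267 TPM, and their ranges overlapped, so their order is not set by these data. MT-ATP8 and MT-ND4L overlap MT-ATP6 and MT-ND4 in the mitochondrial genome, and reads in the overlap cannot be assigned to 1 gene of a pair. Measured as a share of counts, the mitochondrial genes held 5.19%.

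Cytosolic ribosomal proteins, the protein part of the translation machinery, were the most numerous of the listed groups among abundant genes. Of 86 with a row, 83 were detected, against 57.8% of all genes, and 49 of them were among the 100 most abundant genes. They held 13.9% ± 0.26 (SD, n = 3) of the TPM, or 6.33% of counts. RPS2 led at 6471.6, 6708.4 and 6672.5 TPM. Elongation factor EEF1A1, which brings aminoacyl-tRNA to the ribosome, stood at 10653, 10721 and 10269 TPM, the highest level of any nuclear gene. Many of these genes have near-identical processed pseudogenes, so their levels depend on how the authors' pipeline assigned shared reads.

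Ribosomal protein genes are known to begin transcription with a C followed by a run of pyrimidines, the 5′ terminal oligopyrimidine motif that ties their translation to growth signalling. The starts of the 4 most abundant with this motif and 1 listed start are shown with those of KRT8 and FTL, more abundant genes outside the family, 20 bases before and 10 from the start, from the RefSeq promoter table of GRCh38.p14. Capitals mark the unbroken run of pyrimidines that begins at the start site. The KRT8 start shown lies within the annotated gene (chr12:52897187-52949954). Which starts these cultures used was not tested, so the levels are not tied to the starts shown.
RPL41 (chr12:56116613-56116642, plus strand): gtagacggaacttcgcctttCTCTCggcct
RPLP0 (chr12:120201102-120201131, minus strand): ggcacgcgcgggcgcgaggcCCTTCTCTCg
RPS18 (chr6:33272055-33272084, plus strand): gatatcgcgtcacttccgctCTCTCTTCCa
RPS3A (chr4:151099608-151099637, plus strand): tcgcgcgactcccacttccgCCCTTTTggc
KRT8 (chr12:52926460-52926489, minus strand): gtgcctgatgcatgattttcattcagcaaa
FTL (chr19:48965289-48965318, plus strand): cgccctagccacgtcccctcgcagttcggc

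A C followed by at least 4 pyrimidines, read on the strand of the gene, opened 44 of 67 ribosomal protein promoters (65.7%), against 4.04% of the 27305 promoters in the table, 1 per symbol. It opened 4.67% of the promoters of genes at 10 to 100 TPM and 10.3% of those at 100 to 1000 TPM. Ribosomal protein genes at those levels were not taken out of these classes. The median ratio of observed to expected CpG in 300 bases was 0.86 and 0.87 in those classes. Promoters could be matched by symbol to 64.8% of silent genes, 66.4% of genes with counts and a mean under 1 TPM, 76.0% of genes at 1 to 10 TPM and 71.9% of genes at 1000 TPM or more, all under 80%, so the comparison of promoter sequence across those classes is void and its values are not given.

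TPT1, at 6119, 5990 and 5574 TPM, was counted with the lists of these groups. Outside these groups, the leading transcripts were iron storage, cytoskeletal and glycolytic genes. The ferritin heavy chain FTH1 stood at 8270, 7545 and 7325 TPM and the light chain FTL at 6088, 5987 and 5581 TPM, both highest in replicate 1. The keratins of simple epithelia KRT8 and KRT18, which pair into 1 filament, stood at 7193, 7278 and 7733 TPM and at 5754, 5829.96 and 6049 TPM. GAPDH, PKM and ENO1 of glycolysis stood at means of 5440.2, 2861 and 2196 TPM (SD 148, 60.5 and 45.8). All 19 genes of the glycolysis list were detected, against 57.8% of all genes. ACTG1 (3427 TPM), HSPA8 (3155), TMSB10 (3049) and ACTB (2699.9) were abundant too, all above ENO1, and NQO1, a quinone reductase, held 1811 ± 42.3 TPM. SCD, which makes monounsaturated fatty acids, stood at 1392, 1423 and 1727 TPM, highest in replicate 3.

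**Figure D1:**
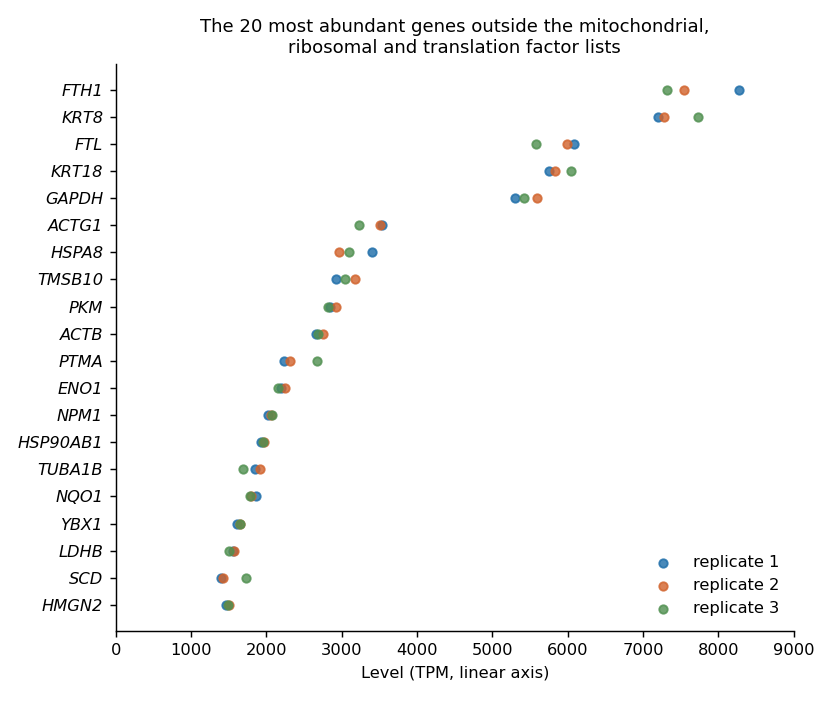
Level in TPM (horizontal, linear) of the 20 most abundant genes outside the mitochondrial, ribosomal protein and translation factor lists (vertical), with 1 point for each control culture. Of the genes shown, FTH1, KRT8, FTL, KRT18 and GAPDH stand at 5302 TPM or more in every culture, and the next, ACTG1, at 3541 TPM or less. TPT1, counted with the lists left out, is not shown.

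All 24 genes of the list of epithelial junctions and state were detected, against 57.8% of all genes, among them EPCAM, a surface adhesion molecule, at 615, 616 and 595 TPM. CLDN7, a tight junction claudin, stood at 356, 351 and 358 TPM and E-cadherin (CDH1) at 194, 202 and 200 TPM. Of 18 genes of mesenchymal transition 5 were detected. VIM, the mesenchymal filament protein, was at 0.742, 0.614 and 0.653 TPM (28, 22 and 24 counts), and CDH2, TWIST1, TWIST2 and ZEB2 had no count. The highest of that list were the matrix protein TNC (137, 149 and 137 TPM), the mesenchymal transcription factor PRRX1 (39.99, 42.04 and 42.7 TPM) and the calcium-binding protein S100A4 (42.6, 44.5 and 34.3 TPM).

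Markers of other cells were mostly silent or low, where 57.8% of all genes were detected. Of 22 acinar genes 4 were detected and 13 had no count, including the digestive enzymes PNLIP, CPB1 and AMY2A and the acinar transcription factor PTF1A. PRSS1, a trypsinogen with close paralogs between which reads can be split, was at 41.9, 35.5 and 34.9 TPM and BHLHA15 at 13.6, 10.6 and 12.5 TPM. Of 21 endocrine genes 2 were detected and 9 had no count, among them INS, GCG and SST. Detected genes numbered 3 of 13 for fibroblasts, 2 of 14 for leukocytes, 1 of 9 with a row for endothelium, 1 of 14 for hepatocytes, 3 of 16 for keratinocytes and 2 of 9 with a row for neurons. The summed level of the leukocyte list was 6.43 to 7.36 TPM, and CD3D, CD3E, NKG7 and TYROBP had no count. That of the fibroblast list was 19.5 to 23.8 TPM, of which ACTA2 made up 15.1 to 18.7, and COL1A2, DCN, LUM and THY1 had no count. The neuron and keratinocyte lists held exceptions. The neuron list summed to 144 to 147 TPM, with its highest member at a mean of 129 TPM. The keratinocyte list summed to 72.6 to 79.4 TPM, with its highest member at a mean of 40.2 TPM. In bulk RNA a few cells of a type and a low level in every cell cannot be told apart.

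**Figure D2:**
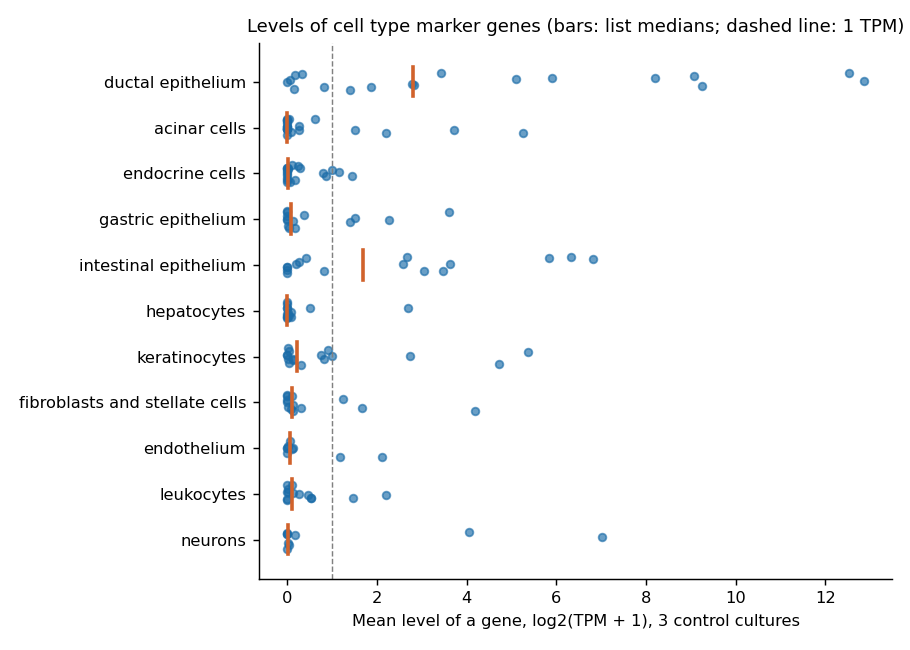
Mean level of each marker gene over the 3 control cultures as log2(TPM + 1) (horizontal) for 11 cell type lists (vertical), with 1 point per gene, an orange bar at the list median and a dashed line at 1 TPM. The ductal and intestinal lists have medians of 6.002 and 2.85 TPM, and the next highest median is that of keratinocytes, at 0.162 TPM.

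Markers of duct epithelium and of intestinal epithelium were both expressed, in part. Of 18 ductal genes 12 were detected, a share near the 57.8% of all genes. KRT19 stood at 506, 543 and 548 TPM and SOX9, a transcription factor of ducts that gut crypts also express, at 289, 281 and 309 TPM. The duct genes CFTR and MUC1 were lower, at 5.54 to 6.58 and 5.63 to 6.35 TPM. KRT7, the keratin that pathologists use for pancreatic and biliary ducts, stood at 2.11, 3.32 and 2.53 TPM, from 33 to 51 counts. The secretin receptor SCTR had no count. Several ductal genes, including KRT8, KRT18, KRT19 and EPCAM, mark any simple epithelium.

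Of 16 intestinal genes 8 were detected, also near that of all genes, and 4 had no count. CDX2, the transcription factor that sets intestinal identity, stood at 109, 113 and 113 TPM. The intestinal cadherin CDH17 was at 80.4, 83.0 and 74.4 TPM. KRT20 (7.75 to 11.4 TPM), TFF3 (6.32 to 7.94), VIL1 (3.94 to 6.31) and LGALS4 (4.40 to 5.34), which mark differentiated gut cells, were lower. Each of these 4 was lowest in replicate 3, as were 7 of the 11 intestinal genes with a mean of at least 10 counts, against 35% of all such genes. Genes of absorptive enterocytes, SI, FABP1, FABP2 and APOA4, had no count, and MUC2 of goblet cells was at 0.639 to 0.861 TPM. Of 14 gastric genes 4 were detected, with MUC5AC highest at 10.6, 11.5 and 11.5 TPM.

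The 4 HOX clusters, which record position along the body axis, were unevenly expressed. Of HOXA genes 10 of 11 were detected and of HOXB genes 9 of 10, against 2 of 9 HOXC and 4 of 9 HOXD genes. The share over all genes was 57.8%. HOXB9 led at 171, 167 and 164 TPM. Posterior members were among those detected: HOXA13, at the end of its cluster, stood at 45.3, 42.6 and 43.3 TPM, HOXA9 at 83.4, 79.9 and 88.1, and HOXD13 at 4.66, 3.73 and 4.77.

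Several surface proteins often raised in pancreatic tumours were silent or nearly so. MSLN and CEACAM5 had no count. CEACAM6 had 4, 7 and 4 counts, CLDN18 13, 5 and 7, and MUC16 2, 4 and 4. PSCA was at 0.397 to 0.727 TPM and MUC4 at 0.0146 to 0.208. Of 27 antigens with a row 18 were detected, a share near the 57.8% of all genes. LCN2, an iron-siderophore binding secreted protein, led at 657, 588 and 638 TPM. The antigen list summed to 2442 to 2570 TPM, more than the members named here hold. Other antigens, not reported here, were thus expressed as well. EGFR was at 55.9, 60.2 and 60.3 TPM, ERBB2 at 45.1, 42.2 and 39.9, and MET at 30.6, 31.1 and 28.2. The markers did not all follow the label of a pancreatic duct-derived line. Of the duct genes named here KRT19 and SOX9 were high and KRT7 and MUC1 low, and MSLN had no count. Other detected members of the ductal list are not reported here. Of the intestinal genes named here CDX2 and CDH17 were high and KRT20, TFF3, VIL1 and LGALS4 low, and 4 of the list were silent. Other detected members of the intestinal list are not reported here. The list summed to 279 to 297 TPM, more than its named genes hold. The identity of the line was not tested, and the cells are called the control cultures throughout.

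**Figure D3:**
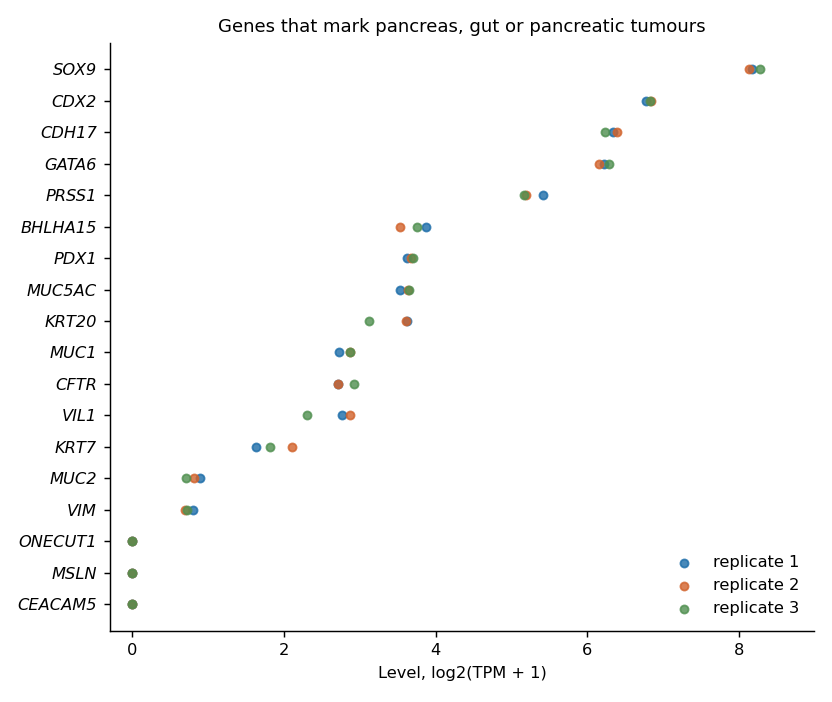
Level as log2(TPM + 1) (horizontal) of 18 genes that mark pancreas, gut or pancreatic tumours (vertical), 1 point for each control culture. SOX9, CDX2, CDH17 and GATA6 stand at 70.5 TPM or more in every culture, and ONECUT1, MSLN and CEACAM5 lie at 0.

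Of 30 transcription factors of pancreas and foregut 20 were detected, a share near the 57.8% of all genes. After SOX9, the highest were KLF5 at 176, 183 and 173 TPM, CDX2, and EHF at 111, 113 and 106 TPM. KLF5 and EHF are regulators of epithelia. GATA6, a factor tied to the classical subtype, stood at 73.8, 70.5 and 77.0 TPM, FOXA1 at 48.4, 45.002 and 42.3, and HNF4A at 27.4, 26.4 and 28.1. PDX1, which specifies the pancreas, was at 11.4, 11.8 and 12.05 TPM. KLF4 (36.8 TPM), HMGA2 (35.2), ELF3 (18.2) and ONECUT3 (14.8) were detected as well. HHEX (6.397), HNF4G (4.15), MNX1 (3.26), FOXA3 (2.99), FOXA2 (2.85), ONECUT2 (1.61) and GLI2 (1.26) were low. PAX6, PROX1, NKX6-1, ZBED2, GATA4 and TP63 were among those with counts that fell short of 1 TPM in at least 1 culture, and PTF1A, ONECUT1 and SOX2 had none.

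The 2 tumour subtype lists were each expressed in part. Of 24 classical genes 11 were detected, against 57.8% of all genes, led by TSPAN8 (263, 261 and 228 TPM) and AGR2 (232, 226 and 239 TPM), while LYZ, BTNL8, CLRN3 and FAM3D had no count. Of 24 basal-like genes 12 were detected, a share near the 57.8% of all genes. The highest were the glucose transporter SLC2A1 (827, 795 and 862 TPM), the adhesion protein TNS4 (243, 255 and 240 TPM) and KRT17 (121, 121 and 124 TPM). The median log2(TPM + 1) of the basal-like list was higher than that of the classical list by 0.93, 0.89 and 0.85 in replicates 1, 2 and 3, or 0.89 ± 0.04 (SD, n = 3). The SD is a spread between cultures and does not cover the choice of list members. Median levels were 1.72 TPM for the basal-like and 0.41 TPM for the classical list, so the difference rests on genes near the 1 TPM threshold. The difference was 0.44 among members of at least 1 TPM and 1.75 with a pseudocount of 0.1. TSPAN8 and CDH17 of the classical list were lowest in replicate 3, and none of its 12 genes with a mean of at least 10 counts was highest there, against 35.1% of the 13495 such genes.

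Of 24 driver and suppressor genes of pancreatic cancer 23 were detected, against 57.8% of all genes. GNAS (784, 769 and 738 TPM) and MYC (203, 211 and 215 TPM) were the highest. SMAD4 stood at 28.3, 28.2 and 25.9 TPM. The other detected members ranged from 2.00 TPM (CDKN2B) to 99.4 TPM (HRAS), with RNF43, a brake on Wnt signalling, at 98.0, 96.8 and 97.7. CDKN2A, which encodes the inhibitors p16 and p14ARF, was the exception. It had 6, 3 and 2 counts, or 0.422, 0.101 and 0.0683 TPM.

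Around CDKN2A on chromosome 9, levels were uneven. CDKN2A lies at chr9:21967753-21995301 on the GENCODE 29 annotation of GRCh38, next to CDKN2B (151, 135 and 136 counts). MTAP, the next gene on the other side, was at 31.4, 28.7 and 29.4 TPM, and KLHL9 at 27.6, 26.5 and 27.8. Of 20 genes of 9p21 and its borders with a row 11 were detected, a share near the 57.8% of all genes. They included RPS6 (2311 TPM), CAAP1 (42.6), MLLT3 (39.1), PLAA (34.5), FOCAD (25.1), HAUS6 (24.2), IFT74 (16.2) and IZUMO3 (3.47). DMRTA1 had 0, 0 and 3 counts and ELAVL2 and TUSC1 had none. HACD4, IFNE, PLIN2, TEK and SAXO1 had counts without reaching 1 TPM in every culture.

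Interferon-induced genes were expressed in every culture. All 22 with a row were detected, against 57.8% of all genes. ISG15, a ubiquitin-like modifier, led at 1089.5, 1063 and 1012 TPM, with IFIT1 at 387, 379 and 357 TPM and IFI6 at 308, 293 and 275 TPM. Of 17 type I interferon genes 12 had no count, and IFNB1 had 96, 86 and 101 counts (5.89, 5.31 and 6.14 TPM). All 3 cultures carry the vector and had passed selection, so its part in these levels cannot be told apart. Of 21 genes of the amino acid response 20 were detected, also above the share of all genes, with a median of 72.6 TPM over the list. ASNS, which makes asparagine, was the highest at 780, 799 and 826 TPM.

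Families with restricted use were mostly silent. Of 382 olfactory receptor genes 335 had no count, as did 78 of 93 keratin-associated protein genes of hair, 39 of 44 defensins and 81 of 96 symbols of the cancer-testis pattern. The detected symbols of that pattern were MAGEB17 (5.04 to 5.33 TPM), LAGE3 and SSX2IP. The pattern reads symbols alone, so a match need not be such an antigen. SSX2IP, for example, is a binding partner of one. With the taste receptors and type I interferons these 6 families held 659 genes, 3.24% of all, of which 556 (84.4%) were silent, against 18.9% of all genes. They made up 14.4% of the silent genes. OR2W3 (1.99, 1.99 and 2.14 TPM) and OR2A7 (1.47, 1.73 and 1.75 TPM) were the detected olfactory receptors. The largest runs of neighbouring silent genes held olfactory receptors on chromosome 11 (38 genes, 36 of them olfactory receptors, chr11:49952391-56491395) and keratin-associated proteins on chromosome 21 (34 genes, 32 of them such genes, chr21:30165564-31038476), by GENCODE 29 positions. By chromosome, with Y left out, the share of silent genes ranged from 11.2% of 850 genes on chromosome 16 to 31.8% of 771 on X.

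Variation between the cultures was small but larger than counting error for many genes. A dispersion test against Poisson expectation, with 2 degrees of freedom, called 4903 of 13495 genes (36.3%) at a Benjamini-Hochberg adjusted p of 0.05. The test compares these libraries and not conditions. The biological coefficient of variation was 0.0761. The median SD of log2 CPM was 0.08 over the tested genes and 0.10 over those called, and 85.7% of the genes called differed by less than 1.5-fold between their highest and lowest culture. Of the genes called, 1434 were highest in replicate 1, 1689 in replicate 2 and 1780 in replicate 3. Abundant genes pass with small differences: 68 of 83 ribosomal protein genes were called, with a median SD of 0.03.

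The genes with the largest spread were mostly read-through or overlapping loci. Among 10473 genes with a mean of at least 200 counts, the 20 with the highest SD of log2 CPM ranged from 1.00 to 5.31, and the gene in the next place had 0.98. An overlapping gene in the table was found for 19 of these 20, and 1 has no position in the annotation. Of the 10473 genes, 42.0% have a position and no overlapping gene.

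Of these loci 4 are given with their values, chosen after the values were seen. The read-through gene FAM47E-STBD1 had 14.9, 14.3 and 0.401 CPM in replicates 1, 2 and 3, while STBD1, a glycogen-binding protein gene inside it, had 6.56, 4.63 and 19.99 CPM. AMIGO3 had 0.268, 0.323 and 31.6 CPM and GMPPB, a GDP-mannose enzyme gene on the same strand, had 71.9, 66.6 and 47.3 CPM. MRPL30, a mitochondrial ribosomal protein gene, had 53.2, 7.50 and 4.76 CPM, and an unnamed gene that overlaps it (ENSG00000241962) had 21.4, 70.4 and 71.8 CPM. RPL36A-HNRNPH2 had 27.96 and 34.96 CPM in replicates 1 and 2 and no count in replicate 3, where 3 counts would be 0.0799 CPM. For the first 3 of these loci the gene that was low in a culture had a partner that was high there. The part of read assignment in this was not tested.

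**Figure D4:**
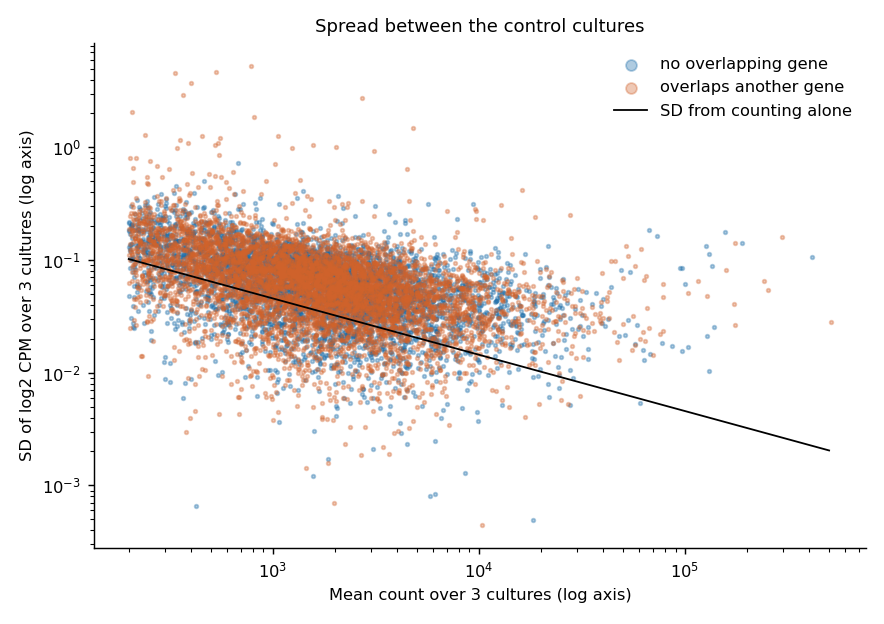
SD of log2 CPM over the 3 control cultures (vertical, log axis) against mean count (horizontal, log axis) for genes with a mean of at least 200 counts and a position, with genes that overlap another in orange, genes with no overlap in blue and the SD expected from counting alone as a line. The points above an SD of 1 are orange, and the blue points reach 0.73.

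Among the 4395 genes with no overlapping gene, a choice made after the values were seen, the 20 most variable had SDs of 0.31 to 0.73. SMIM3, a small membrane protein gene, led at 25.2, 9.52 and 19.9 CPM, lowest in replicate 2. NPIPA5, NPIPA7, NPIPA1, SERF1A and SERF1B followed among others, but these belong to near-identical copies between which reads can be split. LPAR1 had 11.8, 7.26 and 7.54 CPM, CD99 45.6, 47.5 and 72.9, and S100P 22.5, 14.8 and 20.5. CD99 was highest in replicate 3, LPAR1 and S100P in replicate 1. The lowest SDs were those of BCL2L1, an apoptosis inhibitor (278.0, 278.1 and 278.0 CPM), and IARS1, an isoleucyl-tRNA synthetase (491.6, 491.6 and 491.9 CPM), followed by MDM1, SIRT7, OSBPL8, METAP2, STK38, PTBP3, NAF1 and TERF2. The SD of log2 CPM of BCL2L1 was 0.0004, below the 0.014 that counting alone gives at its level. Each of the others named with it was also below its counting SD. The ranking therefore does not show that these genes are steadier than others.

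Sterol synthesis genes moved together between the cultures. The pathway makes cholesterol from acetyl-CoA and is controlled by the SREBP transcription factors. All 19 genes of the list were called by the dispersion test and all 19 were highest in replicate 3, against 36.3% and 35.1% of the tested genes. The median deviation of the list from the gene means was -0.17 in replicate 1, -0.12 in replicate 2 and 0.27 in replicate 3 on the log2 CPM scale, with 0.00 for the tested genes. HMGCS1, which condenses acetyl-CoA units, had 354, 355 and 587 CPM. FDPS, which makes farnesyl diphosphate, was at 509, 518 and 729 TPM. Their levels in replicates 1 and 2 were close and replicate 3 stood above both. The genes were chosen with earlier results of these data known, and no p is given for the list.

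Cell cycle, mitochondrial and interferon genes had smaller median deviations. On the list for G1/S and replication, all 21 genes were called and 20 were highest in replicate 2, against 33.4% of tested genes, with a median deviation of 0.11 in replicate 2 and -0.09 in replicate 3. MCM5, a subunit of the replicative helicase, was at 49.1, 59.9 and 46.9 TPM and ORC1, of the origin recognition complex, at 20.5, 26.2 and 22.2 TPM. Of 25 G2/M genes 17 were highest in replicate 2, with a median deviation of 0.05. All 13 mitochondrially encoded genes were called and 12 were lowest in replicate 2, against 33.5% of tested genes, with a median deviation of -0.12. Among interferon genes 14 of 22 were highest in replicate 1, against 31.5% of tested genes, with a median deviation of 0.05.

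**Figure D5:**
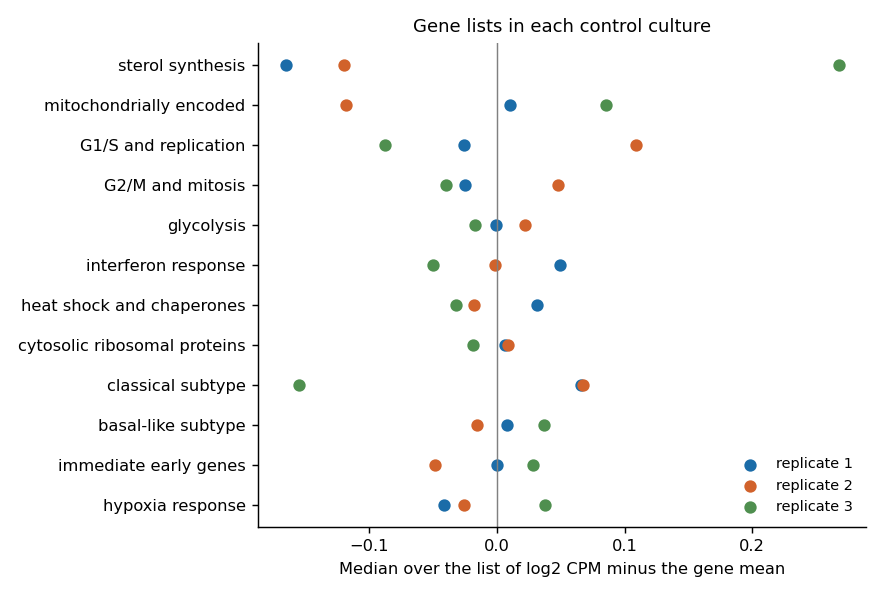
Median over each gene list of log2 CPM minus the gene's mean over cultures (horizontal), for 12 lists (vertical) and the 3 control cultures (colours). Of the lists plotted, sterol synthesis in replicate 3 lies farthest from 0, at 0.27, and the ribosomal protein list lies between -0.02 and 0.01.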

How the data were processed

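RNA sequencing of 3 control cultures was analysed from the authors' deposited table, which held read counts, FPKM and TPM for 20345 protein-coding genes. The submitters' processing notes list StringTie 2.2.3, HISAT2 2.2.1 and fastp 0.23.2 and the builds mm10 and GRCh38, with no roles. Neither the counting program nor its strand setting is named there. The deposited counts are raw, and the authors scaled FPKM and TPM over more genes than the table holds. Without a stated strand setting, reads of genes overlapping on opposite strands cannot be told apart.

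Counts were scaled by TMM (edgeR 4.0.16, R 4.3.3, prior count 2) and tested against Poisson spread with a chi-square of 2 degrees of freedom, on genes with a mean of at least 10 counts, after a test on simulated data; edgeR estimated the coefficient of variation. Positions and overlaps come from GENCODE 29 (GRCh38), since start and end in the table equal it for 100 of 19511 genes. Levels are TPM. Genes named are the 20 most abundant in all and outside core lists, the full driver, foregut factor and 9p21 lists, up to 4 leading members and silent markers of other lists, and the 20 most and 10 least variable. The members and all gene lists were chosen with earlier results of these data known. Some named-rule genes are not reported here.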

Additional observations from a re-analysis of the deposited data

How the results depend on the processing

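The numbers of detected and silent genes moved by less than 1.5-fold under each alternative tried. As shares of counts in place of TPM, the 100 most abundant genes held 21.7%, mitochondrially encoded genes 5.19% and ribosomal protein genes 6.33%. Without mitochondrially encoded genes the 100 most abundant held 27.7%. Shares of FPKM equal those of TPM by construction, so they are no check. No share moved beyond the spread between cultures when a culture was left out, where the means reuse the same libraries. The basal-like list stayed above the classical list throughout: the difference was 1.75 with a pseudocount of 0.1, 0.55 with FPKM, 0.44 among members of at least 1 TPM and 0.56 with means. The number of varying genes was 3222 at an adjusted p of 0.01 and 2320 to 3370 when a culture was left out (2320 without control replicate 3 and 2868 without replicate 2), where fewer libraries were tested. The coefficient of variation was 0.0732 at a mean of 50 counts, 0.0766 with no filter and 0.0618 to 0.0862 with a culture left out. Of the 20 most variable genes, 18 were shared when ranked by SD of log2(TPM + 1), 7 with a minimum mean of 50 counts, 5 with 1000 and 0 when overlapping genes were left out, by construction. The directions of the sterol and G1/S lists held with library totals and with TPM, alternatives chosen after seeing the data. No paired analysis was possible because a single group was analysed.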

Other observations

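Some genes known from the Wnt pathway were chosen after their values were seen, and their levels say nothing of the pathway as a whole. AXIN2, a feedback inhibitor and common readout of the pathway, stood at 489.7, 472.8 and 494.2 TPM, ASCL2, a stem cell transcription factor of the gut, at 77.5, 69.3 and 72.0 TPM and LGR5, a receptor of gut stem cells, at 20.2, 21.4 and 22.8 TPM. TCF7 was at 103.7, 116.1 and 113.3 TPM, ZNRF3 at 33.7, 34.7 and 37.9 and LEF1 at 19.0, 18.3 and 19.8. NKD1 (1.42 to 1.95 TPM) and NOTUM (0.95 to 1.61 TPM), also known as targets of the pathway, were low. Among metallothioneins, 5 of 9 genes were detected, near the 57.8% of all genes, led by MT2A (399.8, 447.0 and 433.2 TPM). Of 70 replication-dependent histone genes, whose mRNAs lack a poly(A) tail, 19 were detected, below that share.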
